A study of Homo sapiens with 6 samples.

Results

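The netrin receptor and netrin genes of SH-SY5Y cells, a human neuroblastoma cell line, were examined after knockdown of PSF. PSF is the RNA-binding protein encoded by SFPQ. The genes were taken by symbol from a list of 8: the receptors UNC5A, UNC5B, UNC5C, UNC5D, DCC and NEO1, and the ligands NTN1 and NTN4. Rows were found for 7 of the 8 among the 21301 genes of the table, and these 7 passed the filter on low counts that left 19694 genes for testing. NTN1 was not analysed here. The genes were selected on their read counts in the siControl and siPSF libraries, that is with results of this comparison known, so that the values of these genes in it are a description and carry no p-value.

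Netrins are secreted proteins related to laminin that guide growing axons and migrating cells. DCC and its relative neogenin, the product of NEO1, mediate attraction towards netrin, whereas receptors of the UNC5 family mediate repulsion, alone or together with DCC. DCC and UNC5 proteins are also known as dependence receptors: without ligand they can promote apoptosis, which has made them a subject of study in tumours of the nervous system.

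Cells received 10 nM of a control siRNA (siControl) or of an siRNA against PSF (siPSF) for 72 h, and RNA was sequenced from 3 libraries of each group, which the study describes as biological triplicates. All 6 libraries came from this 1 established line without any other treatment, and siPSF was a single siRNA sequence. Depth was 119019293 to 132420931 counts in the siControl libraries and 101540520 to 120627283 counts in the siPSF libraries. The targeted gene SFPQ gave 372, 356 and 401 CPM (the count of a gene relative to the total of its library, with the TMM factors of edgeR) in siControl and 209, 193 and 165 in siPSF, so that 50.2% of its level was left. All 8 noradrenergic neuroblastoma markers looked for were measured, and their summed level was 3876 to 4403 CPM in siControl against 3336 to 3810 in siPSF. DBH and TH, enzymes of catecholamine synthesis, were called lower and the transcription factor GATA3 was called higher, while TH lay under 1 CPM in every library. Of the mesenchymal markers, 6 of 7 were measured, summing to 345 to 362 CPM in siControl and 316 to 340 in siPSF, and PRRX1 was not analysed here. FN1 was called lower (log2 fold change -0.60), whereas the median of the 6 was 0.27. VIM, CD44, YAP1 and SNAI2 had log2 fold changes of 0.19, 0.52, 0.35 and 0.39 and TWIST1, which makes up most of the sum, one of -0.10, none of them called. The glial markers SOX10 and GFAP were not analysed here. The part of these marker shifts in the values below was not tested, and in such bulk RNA fewer cells of a type and less RNA per cell cannot be told apart.

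UNC5C, UNC5D and DCC had the largest falls, with 26.7%, 28.0% and 32.7% of the control level left, and NEO1 kept 69.2%. UNC5B kept 81.1%, and UNC5A kept 97.1%, within the spread of its libraries. Across all genes, a Benjamini-Hochberg adjusted p under 0.05 in the quasi-likelihood test of edgeR called 8.27% lower and 6.65% higher in siPSF. The same call applied to 4 of the 7 genes in the lower direction (UNC5C, UNC5D, DCC and NEO1) and to 0 in the higher. The siPSF values all lay under the siControl values for 17.8% of all genes, and for these 4 and UNC5B. Nothing is read from these counts, because the genes were chosen with this contrast known. Their median log2 fold change was -0.53, beside 0.01 over all genes tested.

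**Figure D1:**
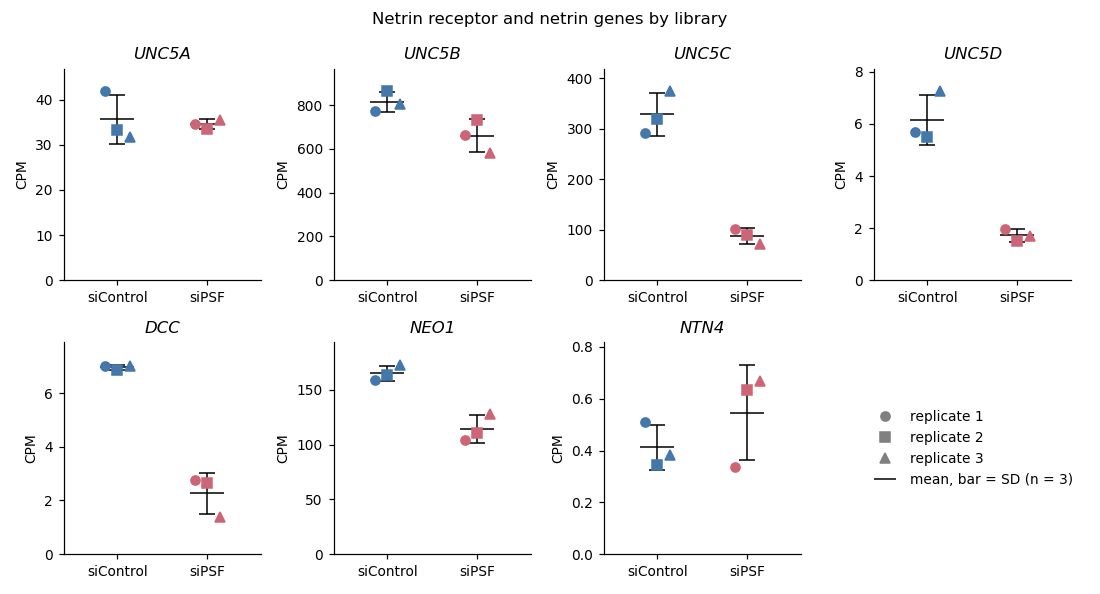
CPM of the 7 netrin receptor and netrin genes on separate vertical axes that start at 0, with 1 point for each siControl (blue) or siPSF (red) library and the mean and SD over 3 libraries in black. The groups are apart for UNC5B, UNC5C, UNC5D, DCC and NEO1, whereas they overlap for UNC5A and NTN4.

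The upstream sequences of UNC5C, DCC and UNC5A are shown because these receptors, 2 with large falls and 1 without, have windows in the RefSeq promoter table of GRCh38.p14, where 5 of the 7 genes had an entry. UNC5B and UNC5D had none. Each line is the 250 bases before the annotated start, 5′ to 3′ on the strand of the gene, with the GC box hexamer GGGCGG or its reverse complement CCGCCC in capitals. The windows lie at chr4:95548974-95549223 (minus strand), chr18:52339947-52340196 (plus strand) and chr5:176810309-176810558 (plus strand).
UNC5C: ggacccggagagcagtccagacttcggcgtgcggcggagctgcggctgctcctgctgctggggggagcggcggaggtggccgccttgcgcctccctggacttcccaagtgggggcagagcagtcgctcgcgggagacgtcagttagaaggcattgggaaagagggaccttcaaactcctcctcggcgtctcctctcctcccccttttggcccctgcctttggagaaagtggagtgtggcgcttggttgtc
DCC: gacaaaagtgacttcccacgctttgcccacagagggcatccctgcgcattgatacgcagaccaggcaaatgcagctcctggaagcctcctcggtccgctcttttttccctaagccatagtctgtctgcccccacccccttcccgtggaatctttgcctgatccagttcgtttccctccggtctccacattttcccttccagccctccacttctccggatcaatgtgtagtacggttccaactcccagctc
UNC5A: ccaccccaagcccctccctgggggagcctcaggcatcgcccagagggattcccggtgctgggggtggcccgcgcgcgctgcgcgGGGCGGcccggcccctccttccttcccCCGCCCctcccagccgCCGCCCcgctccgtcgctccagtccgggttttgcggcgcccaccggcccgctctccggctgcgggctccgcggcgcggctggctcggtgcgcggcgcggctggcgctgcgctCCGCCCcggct
The hexamer occurred 4 times in the UNC5A window and 0 times in those of UNC5C and DCC. NEO1 held 1 copy, and NTN4, with windows for 2 start sites, held 0 in one and 4 in the other. Of all 35116 windows of this length, 42.6% held at least 1 copy on either strand. The dinucleotide CG had a median of 11 over all windows. It occurred 36 times upstream of UNC5A, 17 times upstream of UNC5C and 10 times upstream of DCC. The NEO1 window held it 28 times, and the windows of NTN4 held it 20 and 36 times. The NEO1 window, chr15:73051652-73051901, extends past the first base of the gene at 73051692, so it is not wholly upstream. CCAAT, or ATTGG on the other strand, was found once among these genes, upstream of UNC5C, and in 32.0% of all windows. TATAAA, or TTTATA, was found in none of the 6 windows and in 10.7% of all. These matches describe the letters of the windows only.

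NTN4 encodes netrin-4, a secreted netrin of basement membranes. Its row held 62, 46 and 48 reads in the siControl libraries and 40, 67 and 66 in the siPSF libraries, or 0.510, 0.345 and 0.381 CPM against 0.337, 0.635 and 0.669 CPM. The lowest of all 6 values was a siPSF library, and so were the highest ones. The log2 fold change was 0.40 (SE 0.32, 95% interval -0.28 to 1.09), an interval on both sides of 0, so no difference was detectable at this depth. It is the gene with the fewest reads of the 7. On GRCh38 it spans chr12:95657807-95791155 on the minus strand, a length of 133 kb with 10 exons.

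UNC5C (gene ID 8633) encodes a netrin receptor of the repulsive class. Controls gave 292, 320 and 374 CPM, and after siPSF the level was 102, 89.6 and 71.9 CPM. Every siPSF library was well under the lowest control. The means were 329 ± 42.0 CPM and 87.8 ± 15.0 CPM (SD, n = 3), a 3.74-fold lower level. The log2 fold change was -1.90 (SE 0.13, 95% interval -2.19 to -1.62), the 55th most negative of the 19694 genes tested. The gene lies on the minus strand at chr4:95162504-95548973, where its canonical transcript has 16 exons over 386 kb, the longest intron takes 213 kb and exons make up 2.49%. No overlapping gene had a row in the table.

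UNC5D (gene ID 137970), the family member least abundant in these cells, was at 5.68, 5.50 and 7.26 CPM in siControl and at 1.97, 1.497 and 1.69 CPM in siPSF. The groups were again apart, with reads between 158 and 234 behind each siPSF value. The mean fell from 6.15 ± 0.966 to 1.72 ± 0.238 CPM (SD, n = 3), a log2 fold change of -1.83 (SE 0.17, 95% interval -2.20 to -1.47) at rank 74. The gene runs over 561 kb of the plus strand, chr8:35235475-35796540, with 17 exons, a longest intron of 313 kb and 1.63% exonic sequence. LSM12P1, a pseudogene on the opposite strand within it, had 462% of the reads of UNC5D, from 2381, 2451 and 2400 in siControl to 2341, 1857 and 1963 in siPSF. Its log2 fold change was 0.01 (SE 0.10, edgeR quasi-likelihood test, adjusted p = 0.98), and how many of its reads belong to the parent gene of the pseudogene is uncertain.

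DCC (gene ID 1630) encodes the receptor deleted in colorectal cancer, the classical attractive netrin receptor. The 3 siControl libraries gave 7.004, 6.86 and 7.01 CPM, and the siPSF libraries gave 2.76, 2.65 and 1.40 CPM. The control values were tightly grouped, with a coefficient of variation of 1.24%, against 33.3% in siPSF, where the third library was lowest. The log2 fold change was -1.61 (SE 0.21, 95% interval -2.07 to -1.15), a 3.05-fold lower level at rank 138, and it was -1.36 without siPSF replicate 3. DCC is the longest of the 7 genes, with 29 exons over 1196 kb of the plus strand at chr18:52340197-53535899, a longest intron of 411 kb and 0.851% exonic sequence.

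NEO1 (gene ID 4756), which encodes neogenin, a receptor for netrins and for repulsive guidance molecules, was at 159, 164 and 172 CPM in siControl and 104, 111 and 128 CPM in siPSF. The groups did not overlap. The change was smaller than for UNC5C, UNC5D and DCC, with a log2 fold change of -0.53 (SE 0.09, 95% interval -0.73 to -0.33) at rank 1866. NEO1 has as many exons as DCC, 29, in 254 kb of the plus strand at chr15:73051692-73305206, and its longest intron measures 63.7 kb.

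UNC5B (gene ID 219699), a netrin receptor also known from blood vessels, was the most abundant of the family. It was at 772, 863 and 804 CPM in siControl and at 663, 733 and 583 CPM in siPSF. The highest siPSF library lay just under the lowest control. The log2 fold change of -0.30 (SE 0.10, 95% interval -0.52 to -0.088) was not called across all genes. The gene covers 90.3 kb of the plus strand at chr10:71212570-71302864, with 17 exons. UNC5B-AS1 and LOC112268061, which overlap it, held 0.0886% and 0.531% of its reads, with log2 fold changes of 0.20 and 0.29 (edgeR quasi-likelihood test, adjusted p = 0.74 and 0.50).

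UNC5A (gene ID 90249) stood at 41.8, 33.3 and 31.6 CPM in siControl and 34.7, 33.4 and 35.6 CPM in siPSF. All siPSF values fell inside the range of the controls. The log2 fold change was -0.04 (SE 0.11), with a 95% interval from -0.28 to 0.20. The gene is the shortest of the 7, 70.3 kb with 15 exons on the plus strand at chr5:176810559-176880898, and the overlapping hexokinase gene HK3 held 0.7497% of its reads, with a log2 fold change of -0.00 (edgeR quasi-likelihood test, adjusted p = 0.9986).

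**Figure D2:**
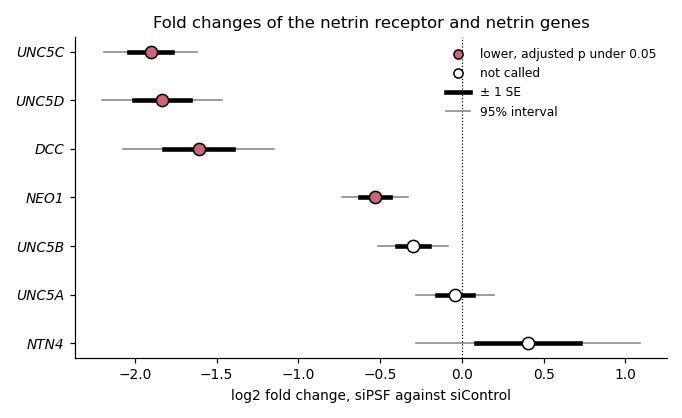
Log2 fold change of siPSF against siControl from the edgeR fit for the 7 genes, with the SE as thick and the 95% interval as thin bars, and filled points for genes called lower at an adjusted p under 0.05. UNC5C, UNC5D and DCC sit between -1.90 and -1.61, NEO1 at -0.53, and UNC5B, UNC5A and NTN4 from -0.30 to 0.40.

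The siPSF libraries did not rank alike for every gene. Replicate 3, with the lowest SFPQ, was also lowest for UNC5B, UNC5C and DCC, but it was the highest for NEO1, UNC5A and NTN4, and UNC5D was lowest in replicate 2.

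Levels of different genes were compared on the deposited FPKM values, which are per exon length. For the 7 genes, FPKM per read, once divided by the median factor of its library over well-covered genes, differed from its median over the libraries by at most 2.86%. In siControl the order was UNC5B at 111 ± 6.13, UNC5C at 31.0 ± 4.75, NEO1 at 21.8 ± 1.37, UNC5A at 8.56 ± 1.21, DCC at 0.637 ± 0.0199, UNC5D at 0.631 ± 0.116 and NTN4 at 0.105 ± 0.0212 FPKM (SD, n = 3). DCC and UNC5D were the only neighbours whose libraries overlapped. In siPSF it was UNC5B at 85.5 ± 9.69, NEO1 at 14.2 ± 1.46, UNC5A at 7.92 ± 0.273, UNC5C at 7.73 ± 1.43, DCC at 0.197 ± 0.0661, UNC5D at 0.163 ± 0.0251 and NTN4 at 0.132 ± 0.0443 FPKM. UNC5C, second in siControl, then overlapped UNC5A, and DCC with UNC5D and UNC5D with NTN4 could not be ordered either.

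The make-up of the UNC5 RNA was then compared within each library. UNC5C made up 19.1%, 19.3% and 23.1% of the summed UNC5 FPKM in the siControl libraries and 8.70%, 7.18% and 6.94% in the siPSF libraries. The share of UNC5B was 73.4 ± 1.88% in siControl and 84.3 ± 1.26% in siPSF (SD, n = 3), and that of UNC5A was 5.71 ± 1.15% and 7.89 ± 1.09%. UNC5D stayed under 1% of the sum, at 0.417 ± 0.0643% and 0.162 ± 0.0293%. The ratio of UNC5B to UNC5C thus went from 3.61 ± 0.446 to 11.2 ± 1.40, and that of UNC5C to UNC5A from 3.71 ± 0.962 to 0.978 ± 0.189.

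**Figure D3:**
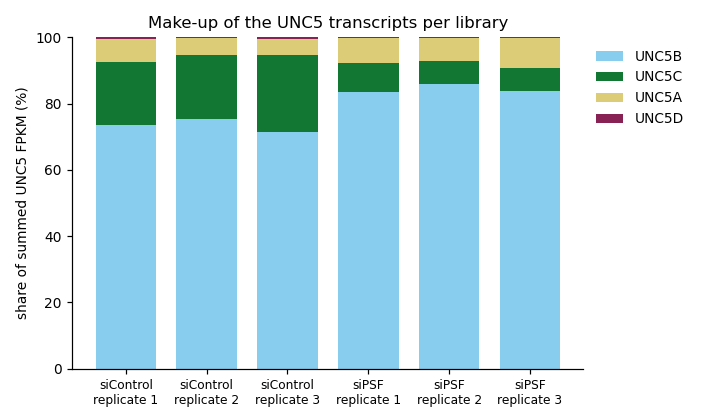
Share of each UNC5 gene in the summed UNC5 FPKM (percent), with 1 stacked bar for each of the 6 libraries. The UNC5C share is 19.1 to 23.1% in the siControl bars and 6.94 to 8.70% in the siPSF bars, while UNC5B is the largest share in each bar.

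Summed over the 4 UNC5 genes, the level was 151 ± 8.33 FPKM in siControl and 101 ± 10.5 FPKM in siPSF. DCC and NEO1 together gave 22.4 ± 1.39 and 14.4 ± 1.39 FPKM, nearly all of it NEO1, since DCC was 2.84 ± 0.107% of this sum in siControl and 1.40 ± 0.567% in siPSF. The ratio of the UNC5 sum to the DCC and NEO1 sum was 6.59, 7.06 and 6.55 in siControl and 7.83, 7.89 and 5.61 in siPSF. The groups overlapped in this ratio, with means of 6.73 ± 0.287 and 7.11 ± 1.297. This overlap rests on siPSF replicate 3: the other siPSF libraries lay above every control, and the siPSF mean without it was 7.86. The shares of UNC5B and UNC5C within the UNC5 class did not overlap between the groups.

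The 4 genes called lower were the 4 longest of the 7, from 254 to 1196 kb, and the others measured 70.3 to 133 kb. Length was therefore set beside the fold changes, using a lowess trend of log2 fold change over 14418 protein-coding genes tested. At the lengths of UNC5C, UNC5D and DCC the trend was -0.34, -0.44 and -0.64, and their own values lay a further -1.56, -1.40 and -0.97 from it. NEO1 lay -0.30 from a trend of -0.23. UNC5A, UNC5B and NTN4 lay -0.03, -0.25 and 0.51 from trends of -0.02, -0.05 and -0.11. The part of length in these values was not tested.

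**Figure D4:**
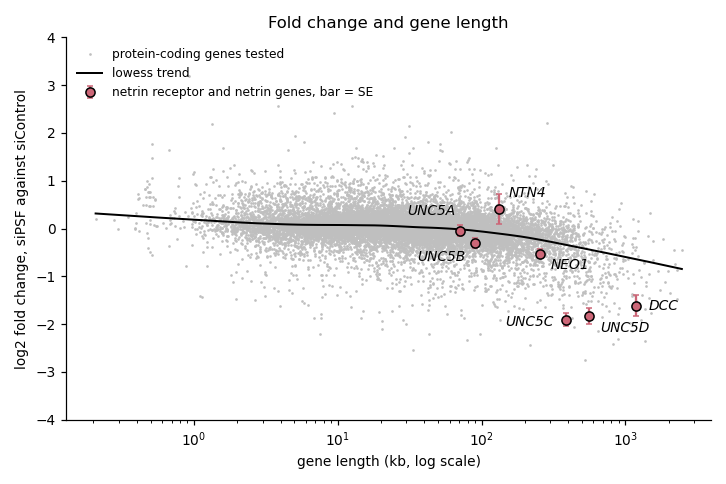
Log2 fold change of siPSF against siControl over gene length (kb, log axis) for 14418 protein-coding genes (grey), with their lowess trend (black) and the netrin receptor and netrin genes (red, bars are SE). UNC5C, UNC5D and DCC lie 0.97 to 1.56 under the trend at their lengths.

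Over the 6 libraries, the genes most like UNC5C in log2 CPM among the 14679 genes averaging 1 CPM or more were GPC6, a glypican (Pearson r 0.999), DPYD, the first enzyme of pyrimidine breakdown (r 0.999), and CRISPLD2, a secreted protein (r 0.998). Their log2 fold changes were -1.52, -0.96 and -1.22, given as a description because the choice by likeness fixes their direction. They measure 1191, 843 and 89.5 kb. For UNC5D they were FSTL5, a follistatin-like protein (r 0.998), PLD5, of the phospholipase D family (r 0.997), and CNTN6, a neural cell adhesion molecule (r 0.997), with log2 fold changes of -1.23, -1.12 and -1.27 and lengths of 780, 448 and 311 kb. UNC5C itself had r of 0.987 with UNC5D, 0.970 with DCC, 0.891 with NEO1, 0.866 with UNC5B and 0.02 with UNC5A. These values come from 6 points in 2 groups, so the difference between the groups makes up much of them. All genes also share the depth and preparation of each library.

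Genes that act with netrins and their receptors were taken from 4 lists of 50 genes, of which 48 were tested. In siPSF 8 were called lower, 4 were called higher and 36 were not called, which is 16.7% and 8.33% of those tested beside 8.27% and 6.65% of all genes. Their median log2 fold change was -0.07, beside 0.01 over all genes.

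Among the other ligands, 1 of 10 tested was called lower and 2 higher, beside 8.27% and 6.65% of all genes. The median log2 fold change was 0.02. The netrin-G genes, which encode membrane-anchored netrin relatives that bind other receptors than DCC and UNC5, went apart. NTNG1 was at 16.4, 12.7 and 14.2 CPM in siControl and 11.4, 10.2 and 8.11 CPM in siPSF (log2 fold change -0.55, SE 0.14, edgeR quasi-likelihood test, adjusted p = 0.024). NTNG2 was at 33.0, 39.9 and 36.0 CPM in siControl and 54.4, 61.8 and 62.9 CPM in siPSF (log2 fold change 0.72, SE 0.10, edgeR quasi-likelihood test, adjusted p = 0.00072). RGMA, a neogenin ligand, rose by 0.56 on the log2 scale (SE 0.15, edgeR quasi-likelihood test, adjusted p = 0.024), from a mean of 11.0 CPM in siControl. RGMB, also on this list, was more abundant, with means of 70.4 CPM in siControl and 68.3 CPM in siPSF. It was not called (log2 fold change -0.04, SE 0.08, edgeR quasi-likelihood test, adjusted p = 0.77). Of the netrin genes with a row, including NTN3 and NTN5, none other passed the test. FLRT2 was not analysed here.

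Of the other receptors and co-receptors, 0 of 5 tested were called lower and 1 higher, beside 8.27% and 6.65% of all genes. The median log2 fold change was -0.20. ADORA2B, an adenosine receptor reported to bind DCC, was at 0.970, 0.802 and 0.635 CPM in siControl and 1.29, 1.27 and 1.42 CPM in siPSF (log2 fold change 0.72, SE 0.22, edgeR quasi-likelihood test, adjusted p = 0.043). LRRC4C, the netrin-G1 ligand, had a log2 fold change of -0.70 (SE 0.27, edgeR quasi-likelihood test, adjusted p = 0.10) and was not called. DSCAM was not analysed here.

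Of the 26 growth cone effectors, 5 were called lower and 1 higher, beside 8.27% and 6.65% of all genes. The median log2 fold change was -0.06. PRKCA, the kinase PKC alpha that acts on surface UNC5A together with PICK1, moved most, from 514, 468 and 518 CPM in siControl to 212, 206 and 172 CPM in siPSF (log2 fold change -1.35, SE 0.10, edgeR quasi-likelihood test, adjusted p = 2.4e-05). Its length is 508 kb. MAP1B, a microtubule-associated protein of growing axons, fell by 0.45 (SE 0.09, adjusted p = 0.0070), and the small GTPase CDC42 rose by 0.53 (SE 0.11, adjusted p = 0.0084) in the same edgeR test. TRIM9 and TRIM67, related ubiquitin ligases that act with DCC, fell by 0.70 and 0.45 (SE 0.22 and 0.13, adjusted p = 0.048 and 0.032), and the Rac activator DOCK1 fell by 0.31 (SE 0.08, adjusted p = 0.026). The adaptors NCK1 and NCK2, the kinases FYN, SRC and PTK2 and the GTPase RAC1 were not called.

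In the dependence receptor death list, 2 of 7 were called lower and 0 higher, beside 8.27% and 6.65% of all genes. The median log2 fold change was -0.17. DAPK1, a death-associated kinase that UNC5B signals through, was at 43.5, 41.1 and 42.9 CPM in siControl and 32.9, 35.5 and 28.2 CPM in siPSF (log2 fold change -0.40, SE 0.10, edgeR quasi-likelihood test, adjusted p = 0.020). MAGED1, which binds UNC5A, fell by 0.32 (SE 0.08, edgeR quasi-likelihood test, adjusted p = 0.019). CASP9, an initiator caspase, had a log2 fold change of 0.03 (edgeR quasi-likelihood test, adjusted p = 0.90). APPL1, PPP2R1B and CIP2A, also on this list, had log2 fold changes of -0.17, 0.25 and -0.36 (SE 0.11, 0.10 and 0.11). None of them was called in the same edgeR test (adjusted p = 0.33, 0.13 and 0.052). Of the 12 called pathway genes, PRKCA, NTNG2 and MAP1B kept their call whichever of the 6 libraries was left out. Among these fits, CDC42 lost it only without siControl replicate 2, and NTNG1 lost it without siControl replicate 1 or 3. MAGED1 kept its call in 3 of the 6 fits, and DAPK1, DOCK1, RGMA and TRIM67 in 2 each. ADORA2B kept its call only without siControl replicate 1 and TRIM9 only without siPSF replicate 1. ADORA2B and TRIM9 also lost it without the filter on low counts (edgeR adjusted p = 0.066 and 0.082). They lost it too with the replicate number as a block (edgeR adjusted p = 0.066 and 0.068). In unfiltered limma, ADORA2B (adjusted p = 0.053), TRIM9 (0.11), CDC42 (0.084), TRIM67 (0.075), NTNG1 (0.14) and RGMA (0.15) lost it. In filtered limma on log2(FPKM + 0.5) and log2(FPKM + 0.1), NTNG1 (0.072 and 0.075), RGMA (0.066 and 0.067) and TRIM9 (0.067 and 0.071) lost it. PRKCA, NTNG2, MAP1B, MAGED1, DAPK1 and DOCK1 kept it in every limma fit.

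**Figure D5:**
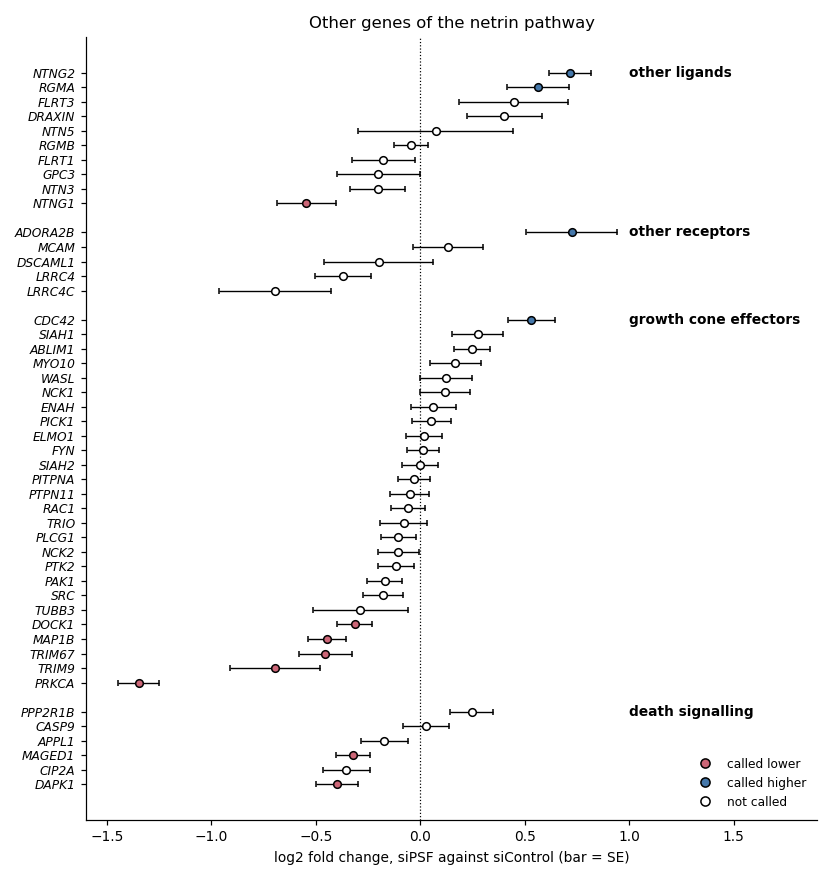
Log2 fold change (siPSF against siControl, bars are SE) of tested genes of the 4 pathway lists, with red points for genes called lower, blue for genes called higher and open points for the rest. PRKCA, at -1.35, stands lowest and NTNG2 and ADORA2B, both at 0.72, highest.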

How the data were processed

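RNA-seq of SH-SY5Y cells was analysed, 3 siControl and 3 siPSF libraries grouped by their labels. The authors deposited 1 table with read counts and FPKM values per gene and library, used as deposited. Sources differ on how they were made: the labels name a stranded kit, Trimmomatic, HISAT2 2.1.0, StringTie 2.1.3b and GRCh38 (the submitters' processing notes), whereas the methods of the study name a TruSeq kit, Bowtie 2, TopHat and hg38 with RefSeq genes. Whether strand was used in counting is not given in the sources used here, so reads of overlapping genes may be shared. Each listed gene had at least 1 count in each library.

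Counts were filtered with filterByExpr, scaled by TMM and tested with the quasi-likelihood test of edgeR 4.0.16 in R 4.3.3, without covariates, with Benjamini-Hochberg adjustment over 19694 genes at a threshold of 0.05. The common biological coefficient of variation was 12.6%. SEs came from the fold change and its F statistic. The fit was tested on simulated data. Gene positions and promoters came from RefSeq GRCh38.p14 (97.8% of gene IDs matched) and exons from canonical GENCODE transcripts. The lowess trend used a fraction of 0.3 in statsmodels 0.14.6.

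The genes and lists were chosen with earlier results of these data known. Named were the listed netrin genes, SFPQ, up to 12 called pathway genes by smallest adjusted p, overlapping genes, and the 3 genes most correlated with UNC5C and with UNC5D. The other pathway genes and markers named were picked after their values were seen, and some genes of the lists are not reported here. Replicate numbers did not pair the libraries. Alternatives were DESeq2 1.42.0, limma 3.58.1 on log2(FPKM + 0.5) and log2(FPKM + 0.1), a replicate block, no filter, and each library left out. Intervals cover the spread between these libraries.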

Additional observations from a re-analysis of the deposited data

How the results depend on the processing

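UNC5C and NEO1 kept their direction and call under every alternative fit, as did UNC5D and DCC wherever they were tested. Without each replicate in turn, UNC5C ranged from -2.03 to -1.78, UNC5D from -1.95 to -1.70, DCC from -1.78 to -1.36 and NEO1 from -0.62 to -0.47 (log2 fold change). UNC5D and DCC, whose mean over all 6 libraries lay under 0.5 FPKM, were left out by the floor of the filtered limma fits, which called 3 of the genes lower. Unfiltered limma on log2(FPKM + 0.5) gave -0.77 and -0.71 for them, a scale that understates low genes. UNC5B, not called in the report, passed the threshold with DESeq2 and with the replicate block (-0.31 in each). It also passed with limma (-0.38) and without siPSF replicate 2 (-0.38). In the fits that left out 1 library, 4 to 5 of the netrin genes were called lower. Over all genes those fits called from 928 of 19907 to 1735 of 19863 lower, beside 1628 of 19694. Nothing is read from these counts, because the genes were chosen with this contrast known. UNC5A (-0.04) ranged from -0.12 to 0.089 and was above 0 without siControl replicate 1. The number called higher was 0 throughout.

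The pathway counts were less stable. Leaving out single libraries gave 3 to 8 lower calls, beside 8, and 1 to 6 higher calls, beside 4. The lower calls were 3 without siControl replicate 2, 3 without siControl replicate 3, 4 without siPSF replicate 1 and 5 without siControl replicate 1. Over all genes the same fits called 928 of 19907, 1022 of 19889, 1130 of 19919 and 1436 of 19879 lower, beside 1628 of 19694. Lower calls over all genes were thus also fewer in them. Higher calls over all genes ranged from 572 to 1405 when single libraries were left out, beside 1310. limma called 2 higher on log2(FPKM + 0.5), 2 on log2(FPKM + 0.1) and 1 without the filter. In that last fit 634 of all 21301 genes were called higher. Over the 14830 genes above its FPKM floor, limma on log2(FPKM + 0.5) called 1782 lower and 736 higher, with a median log2 fold change of -0.06. The edgeR fit called 1628 and 1310 of 19694 genes, with a median of 0.01. Without siControl replicate 2, edgeR called 928 and 572 of 19907. The cause was not tested.

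Same-numbered libraries had deviations correlated at -0.022, 0.056 and 0.056, so the numbers were not taken as pairs. With the replicate block 5 of the netrin genes and 8 pathway genes were called lower and 3 pathway genes higher. That fit called 1640 lower and 1389 higher of all 19694 genes. Correlations used no p. NTN4 rests on 40 to 67 reads a library, which limits its precision.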

Other observations

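UNC5CL, a gene named for its likeness to UNC5C that is not a netrin receptor of the list, was chosen after its values were seen. It was at 4.50, 5.48 and 4.37 CPM in siControl and at 1.79, 1.99 and 0.832 CPM in siPSF, with no overlap between the groups. Its log2 fold change was -1.63 (SE 0.26), and siPSF replicate 3 was lowest for it, as for UNC5C and DCC.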
